A study of Mus musculus with 12 samples.

Results

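Immediate early genes are switched on within minutes of a signal, without the need for new protein. The 10 genes described here are grouped under that name and encode transcription factors, and whether each of them meets this definition was not tested. They are Fos, Fosb, Fosl1 and Fosl2 of the FOS family, Jun and Junb of the JUN family, Egr1, Egr2 and Egr3 of the EGR family, and the nuclear receptor gene Nr4a1. The members were taken by name and make up 10 of the 53801 genes in the deposited counts. They and the gene lists used below were chosen with earlier results of these data known. Their counts and medians beside those of all genes are therefore descriptive. All 10 passed the filter on low counts, as did 15828 genes in all.

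The 12 libraries were made from messenger RNA of C2C12, a line of mouse myoblasts that can fuse into muscle fibres. Group Ctrl-DMSO is control cells given the solvent DMSO for 6 h, and group Ctrl-Thap is control cells given thapsigargin (Thap) for 6 h. Group Sh2-DMSO is cells in which Cebpg was knocked down, given DMSO for 6 h, and group Sh2-Thap is knockdown cells given thapsigargin for 6 h. Cebpg encodes the bZIP transcription factor C/EBP gamma, and thapsigargin blocks the calcium pump of the endoplasmic reticulum, which causes stress in that compartment. Each group held 3 libraries of 1 cell line, and no label states whether the 3 were grown separately. Every p-value therefore rests on the spread between these libraries, which may be technical. Sh2 is the only knockdown label, and the treatment of the control cells is not described in the sources used here. Loss of Cebpg and an off-target effect thus cannot be told apart. The source field names C2C12 while the growth protocol names HeLa cells, and no thapsigargin dose is stated.

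FOS and JUN proteins join through leucine zippers into the AP-1 dimer, which binds the DNA letters TGANTCA with C or G at N. FOS proteins need a partner, whereas JUN proteins can also pair with themselves or with ATF and MAF relatives. EGR proteins are zinc finger factors that bind GC-rich DNA and are held in check by the NAB corepressors, and NR4A1 is an orphan nuclear receptor. Growth factors and stress switch these genes on through MAP kinases, serum response factor with its ELK partners at CArG boxes, and CREB at cAMP response elements. Their transcripts are short-lived, many through AT-rich elements near the 3′ end. In myoblasts, growth factor and AP-1 activity is known for holding back differentiation.

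The promoter sequences of 5 members show which letters of these control elements lie just before the start site. Each is the 250 bases before a RefSeq start (GRCm38.p6), written 5′ to 3′ along the gene's strand, with matches to the searched motifs in capitals. Fos, Fosb and Nr4a1 are shown as the members that were higher in knockdown cells by more than any other member in DMSO, Jun as a member that was lower there, and Egr2 for the CArG box.
Fos (chr12:85473640-85473889, plus strand): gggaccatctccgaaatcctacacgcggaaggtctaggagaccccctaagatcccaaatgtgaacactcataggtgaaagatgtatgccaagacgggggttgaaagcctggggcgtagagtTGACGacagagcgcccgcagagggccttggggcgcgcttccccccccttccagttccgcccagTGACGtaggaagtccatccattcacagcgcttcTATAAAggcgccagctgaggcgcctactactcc
Fosb (chr7:19310046-19310295, minus strand): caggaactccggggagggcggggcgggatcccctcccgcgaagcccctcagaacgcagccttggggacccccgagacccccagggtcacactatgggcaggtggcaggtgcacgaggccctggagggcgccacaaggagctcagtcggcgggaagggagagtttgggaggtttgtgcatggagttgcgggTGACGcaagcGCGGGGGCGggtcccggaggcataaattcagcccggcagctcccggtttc
Nr4a1 (chr15:101266596-101266845, plus strand): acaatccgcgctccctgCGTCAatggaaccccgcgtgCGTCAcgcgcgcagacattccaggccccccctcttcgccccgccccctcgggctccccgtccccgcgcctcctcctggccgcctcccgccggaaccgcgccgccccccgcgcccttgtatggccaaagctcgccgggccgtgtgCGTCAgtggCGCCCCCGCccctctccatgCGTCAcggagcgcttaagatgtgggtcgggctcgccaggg
Jun (chr4:95052223-95052472, minus strand): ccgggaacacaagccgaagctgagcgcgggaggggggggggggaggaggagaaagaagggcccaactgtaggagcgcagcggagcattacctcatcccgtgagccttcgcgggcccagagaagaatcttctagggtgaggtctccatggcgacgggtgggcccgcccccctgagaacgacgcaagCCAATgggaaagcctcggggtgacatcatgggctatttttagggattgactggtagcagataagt
Egr2 (chr10:67537619-67537868, plus strand): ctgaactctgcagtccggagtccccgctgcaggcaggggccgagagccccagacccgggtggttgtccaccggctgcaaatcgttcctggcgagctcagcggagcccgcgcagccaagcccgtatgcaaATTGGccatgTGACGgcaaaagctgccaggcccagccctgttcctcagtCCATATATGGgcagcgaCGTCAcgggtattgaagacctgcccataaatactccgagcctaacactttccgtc
The core of the cAMP response element, TGACG, was searched on both strands and was found in 17.77% of the 32851 promoter windows of this length. It occurred 2 times in the Fos window, 1 time in that of Fosb, 4 times in that of Nr4a1, and 2 times in the Egr2 window shown. In the Fos window the nearer copy ended 62 bases before the start, and a TATAAA box, held by 12.37% of windows, ended 28 bases before it. The Nr4a1 and Fosb windows each held the EGR motif GCGNGGGCG, found in 4.7% of windows. The Egr2 window held CCATATATGG, a CArG box, 63 bases before the start, and 1.47% of windows hold one. The Jun window held a CCAAT box, found in 33.85% of windows, and no TGACG.

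The promoter table matched 7 of the 10 members, with 11 windows, because Egr2 has several listed starts. Fosl1, Egr1 and Egr3 were not matched. No member window held the full cAMP response element TGACGTCA (1.55% of windows), which contains TGACG. None held TGANTCA (6.75%) or the joint ATF4 and C/EBP letters TGATGNAA (3.45%). TGANTCA was searched with any base at N, so its share is that of a looser pattern than the AP-1 site. The Junb window held TGACG and CCAAT, and the Fosl2 window held the EGR motif. All 250 bases of the Fosl2 window lie within annotated exons, so it is not sequence before the gene. Median GC content was 61.6% over the members' windows and 52.4% over all windows. These matches describe letters only.

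Libraries held 29.42 to 47.72 M reads assigned to genes, and levels are given as counts per M reads (CPM) scaled by TMM, which corrects for composition. Chi-square per gene between replicates was 2.47 to 9.07, above the level of counting noise. Cebpg was 51.7, 51.5 and 60.6 CPM in Ctrl-DMSO, 211, 219 and 216 CPM in Ctrl-Thap, 4.63, 3.74 and 5.18 CPM in Sh2-DMSO, and 6.11, 5.57 and 5.28 CPM in Sh2-Thap. Every library thus matched its label as control or knockdown. Cebpg levels of the 2 knockdown groups lay close together, so they say little of the treatment there. The stress-induced gene Atf3 was 9.77 to 11.8 CPM in the Sh2-DMSO libraries and 143 to 148 CPM in those of Sh2-Thap. Of 7 myoblast markers 6 or 7 reached 1 CPM in each group, and their summed level was 7350 to 7940 CPM in Ctrl-DMSO, 4980 to 5030 in Ctrl-Thap, 9930 to 11200 in Sh2-DMSO and 7690 to 8220 in Sh2-Thap, most of it the filament gene Vim. With the knockdown in DMSO 3 of these 7 rose and 2 fell. Des went from 1190 ± 68.2 to 764 ± 46.3 CPM and Myod1 from 151 ± 4.65 to 124 ± 5.59. With thapsigargin in control cells 6 fell, while Myf5 rose from 61.8 ± 6.18 to 252 ± 7.14 CPM. Of the markers of other cell types, Ptprc, Cd3e, Epcam, Adipoq and Plin1 stayed at or below 0.289 CPM in every library. Pecam1 and Cdh5 stayed at or below 1.2 CPM, and Lep was at 0 reads. Cd68 reached 6.84 CPM and Csf1r 1.81 CPM. Several markers moved with thapsigargin, low ones included: Cdh5 rose in control cells (adjusted p = 1.81e-07), Vwf went from 0.28 to 4.35 CPM there and Krt18 from 0 to 1.44 CPM, and in knockdown cells Krt18 went from 0.0907 to 3.92 CPM and Krt8 from 0.219 to 2.76 CPM. Summed levels in the 4 groups, in the same order, were 4.19 to 5.12, 27.5 to 32.3, 5.9 to 6.95 and 18.4 to 21.1 CPM for 5 endothelial markers (mostly Tek). They were 14.2 to 15, 18.7 to 21, 14.5 to 17 and 29.2 to 32.4 CPM for 5 epithelial markers (mostly Krt14), and 18 to 20.8, 51.7 to 58.4, 34 to 39.1 and 92.8 to 99.1 CPM for 5 adipocyte markers (nearly all Pparg). For 6 leukocyte markers (mostly Cd68) they were 4.86 to 5.85, 3.4 to 3.86, 5.66 to 8.58 and 4.35 to 5.7 CPM. The part of these shifts in the results below was not tested.

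**Figure D1:**
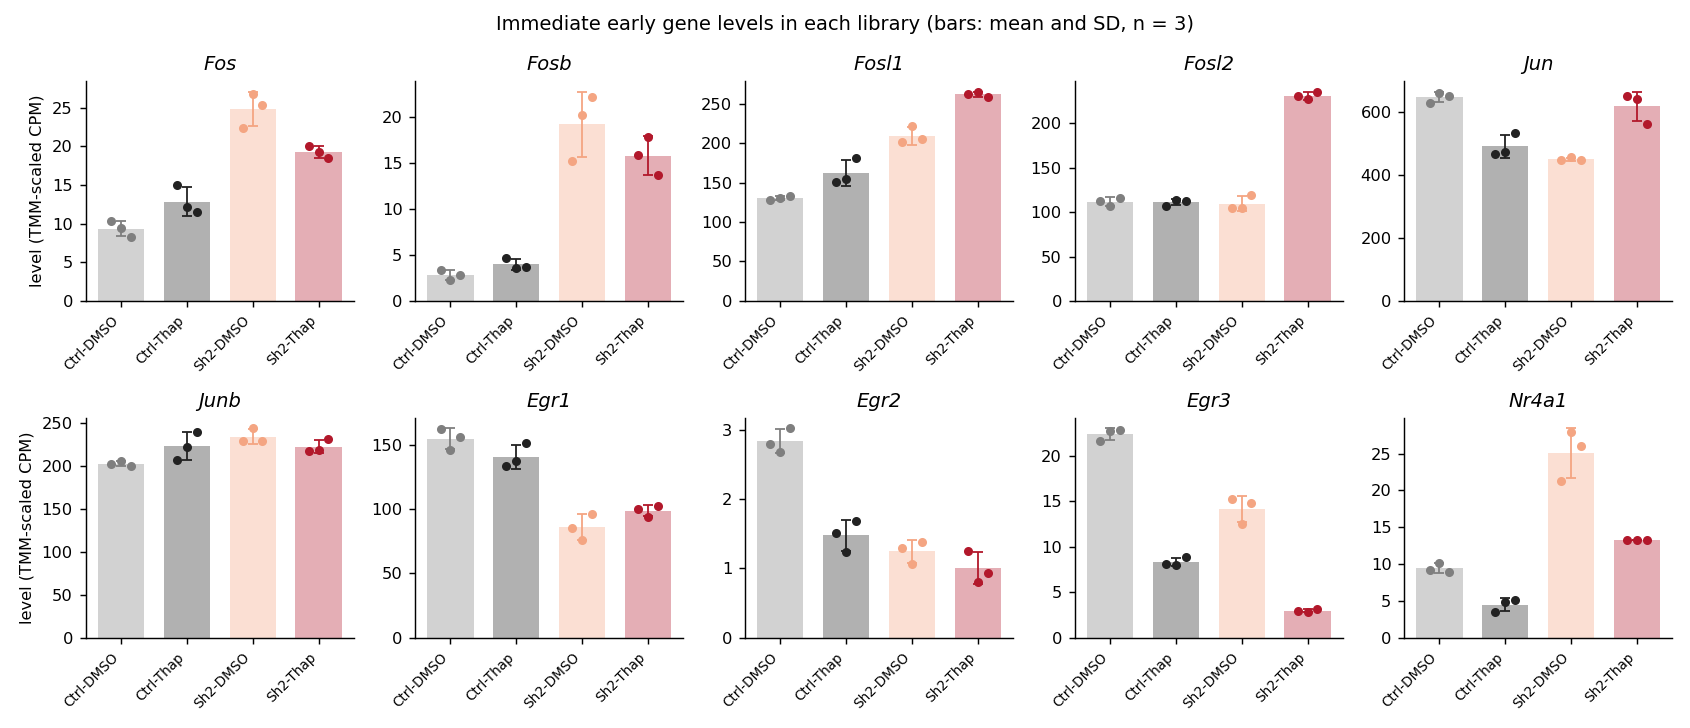
Level of each of the 10 genes in TMM-scaled CPM (vertical axes, each from 0) in the 4 groups. Points are libraries, bars are means and error bars are SDs (n = 3). Fosb stood between 2.29 and 4.69 CPM in the 6 control libraries and between 13.7 and 22.2 CPM in the 6 knockdown libraries, and Fosl2 was above 200 CPM in Sh2-Thap alone.

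Fos, the founding member of its family, was higher in knockdown cells in both treatments, and thapsigargin moved it in opposite directions in the 2 cell populations. Its level was 10.3, 9.42 and 8.32 CPM in Ctrl-DMSO, 15, 12.1 and 11.5 in Ctrl-Thap, 22.4, 26.8 and 25.4 in Sh2-DMSO, and 20.1, 19.3 and 18.5 in Sh2-Thap. No 2 groups overlapped, and the order from lowest was Ctrl-DMSO, Ctrl-Thap, Sh2-Thap, Sh2-DMSO. Changes are log2 differences with an approximate SE, and adjusted p-values are those of edgeR's quasi-likelihood test with Benjamini-Hochberg adjustment over all 15828 genes, called under 0.05. In DMSO, Fos rose with the knockdown by 1.41 (SE 0.09, adjusted p = 3.86e-14), or 2.67-fold. Under thapsigargin the same contrast was 0.6 (SE 0.09, adjusted p = 1.09e-06). Thapsigargin raised Fos in control cells by 0.45 (adjusted p = 0.000101) and lowered it in knockdown cells, a change of -0.36 (adjusted p = 0.000367). In these bulk libraries, more cells with the transcript and more transcript per cell cannot be told apart.

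Fosb, which encodes another partner of JUN proteins, had the largest knockdown effect of the 10 genes. It was 3.32, 2.29 and 2.83 CPM in Ctrl-DMSO, 4.69, 3.6 and 3.65 in Ctrl-Thap, 15.3, 20.3 and 22.2 in Sh2-DMSO, and 15.9, 17.9 and 13.7 in Sh2-Thap. All knockdown libraries lay above all control libraries, while the 2 knockdown groups overlapped. The knockdown raised Fosb 6.87-fold in DMSO (log2 change 2.78, SE 0.16, adjusted p = 4.73e-12) and 4.01-fold under thapsigargin (2, SE 0.15, adjusted p = 2.41e-10). The thapsigargin effects on Fosb were smaller and less certain. In control cells the change was 0.49 (SE 0.19, adjusted p = 0.0246), and this call was lost without Ctrl-DMSO replicate 2 (adjusted p = 0.108) or 3 (0.0647) or Ctrl-Thap replicate 1 (0.102). In knockdown cells it was -0.29 (SE 0.12, adjusted p = 0.0435), a call lost in 12 of 19 alternatives. These included leaving out Ctrl-DMSO replicate 3 (adjusted p = 0.0542), Ctrl-Thap replicate 3 (0.0566), Sh2-DMSO replicate 2 (0.128) or 3 (0.195), or Sh2-Thap replicate 1 (0.0817) or 3 (0.189). DESeq2 gave an adjusted p of 0.118 for it. Over the alternatives the adjusted p ran from 0.00168 to 0.108 in control cells and from 0.000953 to 0.195 in knockdown cells.

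Fosl1, which encodes FRA-1, rose with the knockdown and with thapsigargin alike. Its level was 128, 131 and 133 CPM in Ctrl-DMSO, 151, 155 and 181 in Ctrl-Thap, 201, 222 and 205 in Sh2-DMSO, and 263, 265 and 258 in Sh2-Thap. The 4 groups stood in that order with no overlap. The knockdown change was 0.68 (SE 0.05, adjusted p = 2.39e-12) in DMSO and 0.69 (SE 0.05, adjusted p = 6.2e-13) under thapsigargin. The thapsigargin change was 0.31 (adjusted p = 3.47e-06) in control cells and 0.33 (adjusted p = 1.8e-06) in knockdown cells. The difference of the thapsigargin effects was 0.01 with a 95% interval of -0.14 to 0.16. Counting is uncertain for Fosl1, since 57.2% of its exon bases lie within exons of Ccdc85b on the other strand and whether counting used strand is not stated. Ccdc85b stood at 49.8 ± 2.18, 20.3 ± 1.6, 54.2 ± 5.72 and 33.4 ± 1.21 CPM (SD, n = 3) in Ctrl-DMSO, Ctrl-Thap, Sh2-DMSO and Sh2-Thap. Thapsigargin lowered Ccdc85b in both cell populations (-1.29, adjusted p = 3.15e-17, and -0.7, adjusted p = 7.06e-11), against the direction of Fosl1. Under thapsigargin Ccdc85b rose with the knockdown by 0.72 (adjusted p = 2.93e-10), in the direction of Fosl1 and close to its size there, and in DMSO its change was 0.12 (adjusted p = 0.118). The files also hold an entry for ambiguous reads. Reads that fit both genes may thus have been set aside, which would make the Fosl1 level too low. Neither the part of Ccdc85b reads in the Fosl1 counts nor such a loss was tested.

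Fosl2, which encodes FRA-2, was raised in 1 group alone. It was 113, 107 and 116 CPM in Ctrl-DMSO, 107, 114 and 113 in Ctrl-Thap, 105, 105 and 119 in Sh2-DMSO, and 231, 227 and 236 in Sh2-Thap. The first 3 groups overlapped throughout. In DMSO the knockdown change was -0.03 (95% interval -0.13 to 0.07, adjusted p = 0.682), and in control cells the thapsigargin change was -0.01 (-0.11 to 0.09, adjusted p = 0.882). Thapsigargin raised Fosl2 in knockdown cells 2.11-fold (1.08, SE 0.05, adjusted p = 2.69e-19). The knockdown raised it under thapsigargin 2.08-fold (1.06, SE 0.05, adjusted p = 6.8e-19).

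Jun, which encodes the JUN part of the classical AP-1 dimer, was lower in the groups with the knockdown or thapsigargin alone than in those with neither or both. Its level was 630, 662 and 652 CPM in Ctrl-DMSO, 466, 473 and 533 in Ctrl-Thap, 447, 456 and 448 in Sh2-DMSO, and 650, 640 and 563 in Sh2-Thap. The Ctrl-DMSO and Sh2-Thap libraries overlapped at the top, and both other groups lay below them. Jun fell with the knockdown in DMSO (-0.52, SE 0.05, adjusted p = 3.93e-10) and with thapsigargin in control cells (-0.4, SE 0.05, adjusted p = 2.46e-08). It rose with thapsigargin in knockdown cells (0.46, SE 0.05, adjusted p = 2.54e-09) and with the knockdown under thapsigargin (0.33, SE 0.05, adjusted p = 1.45e-06). The antisense gene Junos covers 7.28% of the exon bases of Jun and stood at 16.1, 18.9, 8.65 and 11.8 CPM as means of Ctrl-DMSO, Ctrl-Thap, Sh2-DMSO and Sh2-Thap. Junos changed in the direction of Jun with the knockdown in DMSO (-0.9, adjusted p = 1.62e-10) and with thapsigargin in knockdown cells (0.45, adjusted p = 4.84e-05), and against it in both other contrasts.

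Junb, whose product is a weaker activator than JUN and can oppose it, varied little. It was 202, 206 and 200 CPM in Ctrl-DMSO, 207, 222 and 240 in Ctrl-Thap, 229, 244 and 229 in Sh2-DMSO, and 218, 219 and 231 in Sh2-Thap. The highest group mean was 1.15-fold the lowest. Junb rose with the knockdown in DMSO by 0.21 (SE 0.05, adjusted p = 0.000474), and under thapsigargin the change was 0 (95% interval -0.1 to 0.09, adjusted p = 0.963). With thapsigargin it was 0.14 higher in control cells (adjusted p = 0.00968), a call lost without Ctrl-Thap replicate 3 (0.08, adjusted p = 0.132) or when genes with any count were tested (adjusted p = 0.0523). In knockdown cells the thapsigargin change was -0.07 (95% interval -0.17 to 0.03, adjusted p = 0.183). Prdx2, on the other strand, covers 7.52% of the exon bases of Junb and stood at 244, 102, 301 and 144 CPM as group means in the same order. Prdx2 rose with the knockdown in DMSO (0.31, adjusted p = 5.21e-05), as Junb did, and fell with thapsigargin in control cells (-1.26, adjusted p = 3.62e-17), where Junb did not.

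The 3 EGR genes were called lower in knockdown cells in both treatments, Egr2 less surely under thapsigargin. Fos, Fosb and Fosl1 were higher in both treatments, and Fosl2 under thapsigargin alone. Egr1, an early growth response factor of the serum response, was 162, 146 and 156 CPM in Ctrl-DMSO, 133, 137 and 151 in Ctrl-Thap, 85.2, 75.8 and 96.3 in Sh2-DMSO, and 100, 93.6 and 102 in Sh2-Thap. All control libraries lay above all knockdown libraries, and the 2 treatments overlapped within each cell population. The knockdown lowered Egr1 in DMSO (-0.85, SE 0.07, adjusted p = 5.29e-10) and under thapsigargin (-0.51, SE 0.07, adjusted p = 9.3e-07). The thapsigargin change in control cells was -0.14 (95% interval -0.28 to 0, adjusted p = 0.0621). It passed the threshold in 7 of 19 alternatives, among them without Ctrl-DMSO replicate 2 (adjusted p = 0.0429), Ctrl-Thap replicate 3 (0.0131), or Sh2-DMSO replicate 2 (0.0123) or 3 (0.0126). In knockdown cells Egr1 rose with thapsigargin by 0.2 (SE 0.07, adjusted p = 0.0114), a call lost without Sh2-DMSO replicate 2 (0.12, adjusted p = 0.0882) or Sh2-Thap replicate 3 (0.18, adjusted p = 0.0585). The adjusted p ran over the alternatives from 0.0019 to 0.199 in control cells and from 8.06e-05 to 0.0882 in knockdown cells.

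Egr2, known for its role in myelinating Schwann cells, was scarce in all 4 groups. It was 2.8, 2.69 and 3.03 CPM in Ctrl-DMSO, 1.51, 1.24 and 1.69 in Ctrl-Thap, 1.29, 1.06 and 1.39 in Sh2-DMSO, and 1.26, 0.81 and 0.94 in Sh2-Thap. The Ctrl-DMSO libraries stood above all others, and the remaining groups overlapped with their neighbours. The mean count behind these levels ran from 33.3 to 98.3 reads. Egr2 fell with the knockdown in DMSO (-1.18, SE 0.2, adjusted p = 6.51e-06) and with thapsigargin in control cells (-0.95, SE 0.19, adjusted p = 3.69e-05). The thapsigargin change in knockdown cells was -0.3 (95% interval -0.78 to 0.17, adjusted p = 0.242). Under thapsigargin the knockdown change was -0.54 (SE 0.22, adjusted p = 0.0392). That call was lost in 8 of 19 alternatives, over which the adjusted p ran from 0.0146 to 0.159. Among them were DESeq2 (adjusted p = 0.0874) and leaving out Ctrl-Thap replicate 1 (0.0774) or 3 (0.148) or Sh2-Thap replicate 2 (0.159) or 3 (0.109).

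Egr3, a relative induced alongside Egr1 and needed for muscle spindles, fell with each intervention and fell furthest with both. Its level was 21.6, 22.7 and 22.8 CPM in Ctrl-DMSO, 8.14, 7.96 and 8.82 in Ctrl-Thap, 15.2, 12.5 and 14.8 in Sh2-DMSO, and 2.88, 2.82 and 3.14 in Sh2-Thap. No 2 groups overlapped, and the highest mean was 7.59-fold the lowest. The knockdown change was -0.66 (SE 0.08, adjusted p = 2.01e-08) in DMSO and -1.49 (SE 0.11, adjusted p = 1.4e-13) under thapsigargin. With thapsigargin Egr3 changed by -1.43 (SE 0.08, adjusted p = 1.27e-16) in control cells and by -2.26 (SE 0.1, adjusted p = 3.88e-19) in knockdown cells.

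Nr4a1, whose product NUR77 acts without a known natural ligand, rose with the knockdown and fell with thapsigargin. Its level was 9.23, 10.2 and 8.93 CPM in Ctrl-DMSO, 3.54, 4.86 and 5.09 in Ctrl-Thap, 21.3, 27.9 and 26 in Sh2-DMSO, and 13.3 in each of the 3 Sh2-Thap libraries. No 2 groups overlapped. The knockdown change was 1.41 (SE 0.1, adjusted p = 1.35e-13) in DMSO and 1.55 (SE 0.11, adjusted p = 2.36e-13) under thapsigargin. The thapsigargin change was -1.06 (SE 0.12, adjusted p = 1.19e-09) in control cells and -0.92 (SE 0.09, adjusted p = 3.19e-10) in knockdown cells. The difference of the thapsigargin effects was 0.13 with a 95% interval of -0.17 to 0.44.

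**Figure D2:**
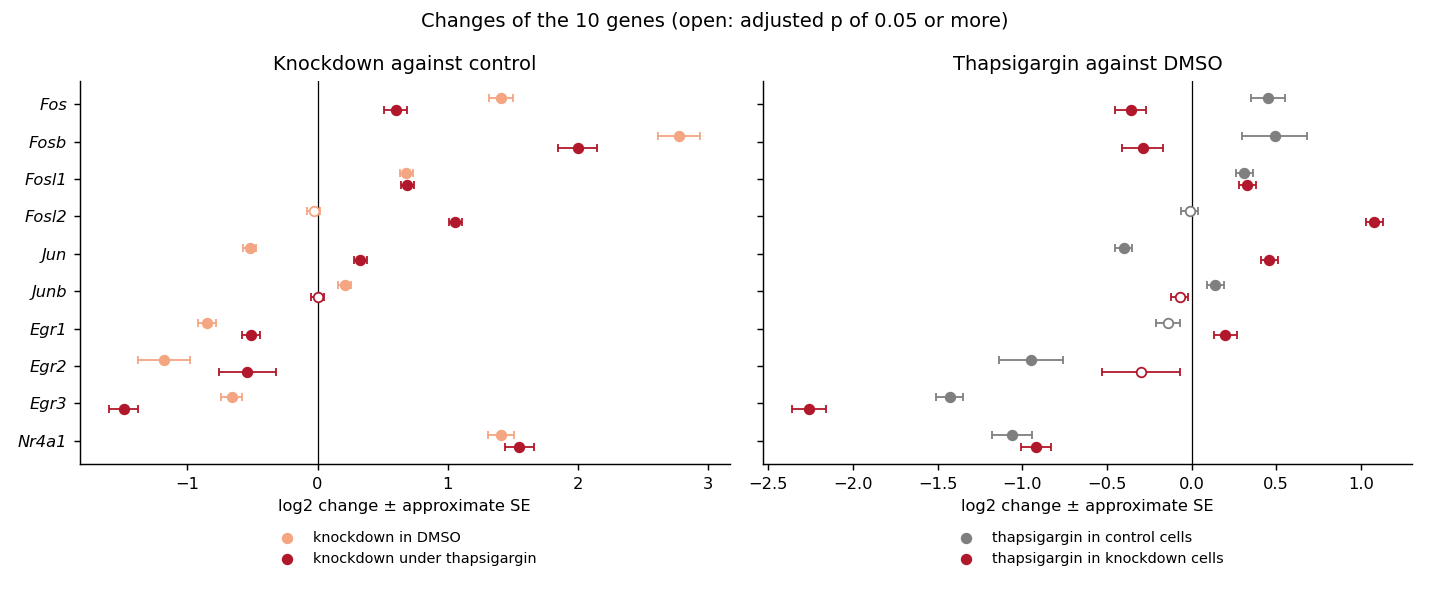
Log2 changes of the 10 genes with approximate SE (bars), for the knockdown in DMSO and under thapsigargin (left) and for thapsigargin in control and in knockdown cells (right). Filled points passed an adjusted p of 0.05. On the left Fosb lies furthest to the right, at 2.78 and 2, and the 3 EGR genes lie left of 0 in both treatments.

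Counted over the members, 5 rose and 4 fell with the knockdown in DMSO. Of all genes tested, 51.5% passed the threshold there, 25% up and 26.5% down. The members that rose were Fos, Fosb, Fosl1, Junb and Nr4a1, those that fell were Jun, Egr1, Egr2 and Egr3, and Fosl2 did not pass. Libraries of the 2 groups did not overlap for 9 members and for 57.1% of all genes. The median absolute log2 change was 0.77 for the members and 0.27 over all genes.

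Under thapsigargin 6 members were higher and 3 lower in knockdown than in control cells, where 56.9% of all genes passed (28.5% up, 28.4% down). Fosl2 and Jun joined Fos, Fosb, Fosl1 and Nr4a1 among those that rose, the EGR genes fell, and Junb did not pass. Groups did not overlap for 8 members and for 62.2% of all genes, and the median absolute change was 0.64 for the members against 0.31.

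With thapsigargin in control cells 4 members rose, 4 fell and 2 did not pass, where 74.7% of all genes passed (37.7% up, 37% down). Libraries did not overlap for 8 members and for 77.1% of all genes. The median absolute change was 0.43 for the members and 0.55 over all genes, so the members' median lay below that of all genes. Every library was taken at 6 h, so any earlier and passing change of these genes was not measured. In knockdown cells 4 rose, 4 fell and 2 did not pass, where 69.8% of all genes passed (35.4% up, 34.4% down). Libraries did not overlap for 6 members and for 71.4% of all genes, and the median absolute change was 0.34 against 0.45. The comparisons share groups of libraries, so their counts are not independent of each other.

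Whether thapsigargin acted differently in the 2 cell populations was tested by the difference of its log2 effects, knockdown minus control cells. For 7 of the 10 members it passed the threshold, 3 upward and 4 downward, where 35.4% of all genes passed, 17.7% in each direction. The median absolute difference was 0.71 for the members and 0.28 over all genes. Fosl2 (1.08, SE 0.07, adjusted p = 2.97e-14) and Jun (0.86, SE 0.07, adjusted p = 4.08e-11) had the largest upward differences of those that passed, followed by Egr1 (0.34, SE 0.09, adjusted p = 0.00683). Egr3 (-0.83, SE 0.14, adjusted p = 1.04e-05), Fos (-0.82, SE 0.13, adjusted p = 6e-06) and Fosb (-0.78, SE 0.22, adjusted p = 0.00997) differed downward. For Junb the difference was -0.21 (SE 0.07, adjusted p = 0.014), a call lost without Ctrl-Thap replicate 3 (-0.16, adjusted p = 0.0602). Fosl1, Nr4a1 and Egr2 did not pass, and for Egr2 the difference was 0.65 (95% interval 0.04 to 1.26, adjusted p = 0.0936). Fos and Jun thus carried opposite signs: thapsigargin raised Fos and lowered Jun in control cells and did the reverse in knockdown cells.

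**Figure D3:**
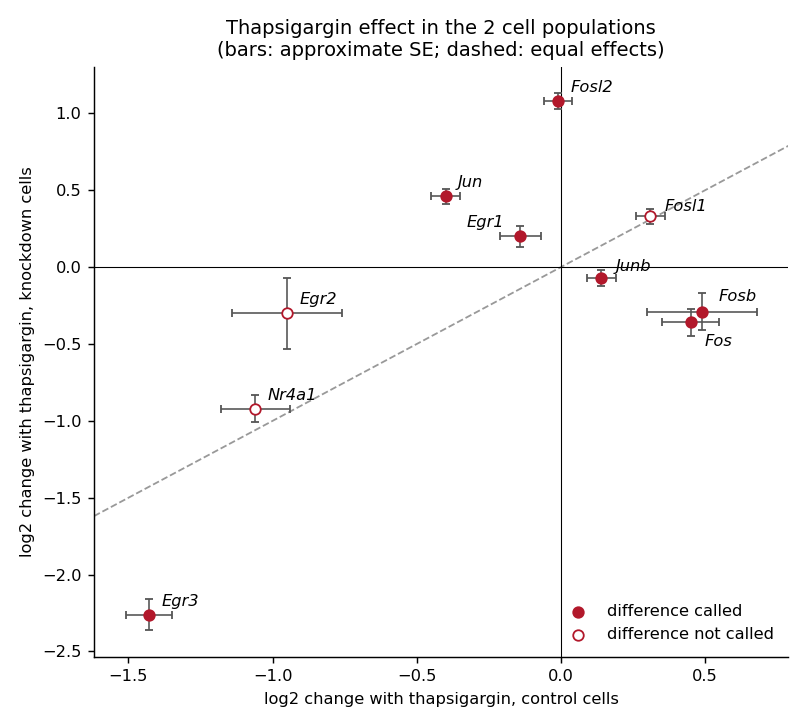
Thapsigargin effect on each gene in control cells (horizontal, log2 change) and in knockdown cells (vertical, log2 change), with approximate SE bars and a dashed line of equal effects. Filled points had a difference past an adjusted p of 0.05. Fosl2 and Jun lie above the line, at 1.08 and 0.46 on the vertical axis, while Egr3 (-2.26), Fos (-0.36) and Fosb (-0.29) lie below it.

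Levels can be compared between genes only per length, and CPM was divided by the kb of exon for that purpose. On this scale Fosl1 made up 80.1%, 81.8%, 80.5% and 78.8% of the FOS family's summed level in Ctrl-DMSO, Ctrl-Thap, Sh2-DMSO and Sh2-Thap, with the doubt about its overlap above. The sum was 80.1 ± 0.959, 97.4 ± 7.46, 128 ± 6.75 and 164 ± 1.92 CPM per kb (SD, n = 3), so its level grew while the Fosl1 share stayed between 78.6% and 83.8% in every library. Fosb held 0.563% ± 0.105 of the sum in Ctrl-DMSO and 2.41% ± 0.389 in Sh2-DMSO. Fos held 4.96% ± 0.569 and 8.25% ± 0.374 in the same groups. Fosl2 held 14.4% ± 0.529 in Ctrl-DMSO, 11.8% ± 0.787 in Ctrl-Thap, 8.88% ± 0.793 in Sh2-DMSO and 14.6% ± 0.469 in Sh2-Thap, so the first and the last did not differ beyond their spread.

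Jun was 69.7% ± 0.477 of the summed Jun and Junb level per kb in Ctrl-DMSO, 61.3% ± 0.702 in Ctrl-Thap, 58.1% ± 0.613 in Sh2-DMSO and 66.6% ± 2.47 in Sh2-Thap. The third JUN gene, Jund, could not be placed, because the files list 1 read for it over all 12 libraries. The EGR sum was 40.4 ± 1.74, 33.7 ± 2.24, 22.7 ± 2.6 and 23 ± 1.07 CPM per kb, and Egr1 made up at least 83.2% of it in every library. The share of Egr3 was 12.6% ± 0.864 in Ctrl-DMSO and 2.91% ± 0.108 in Sh2-Thap. Per length, Jun lay at the 98.77th percentile of the genes tested in Ctrl-DMSO, Junb at the 96.72nd, Fosl1 at the 95.3rd and Egr1 at the 90.28th. Fos lay at the 49.11th percentile, Nr4a1 at the 42.86th, Egr2 at the 29.75th and Fosb at the 24.05th. The members thus spanned the range from abundant to scarce transcripts after 6 h in solvent.

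**Figure D4:**
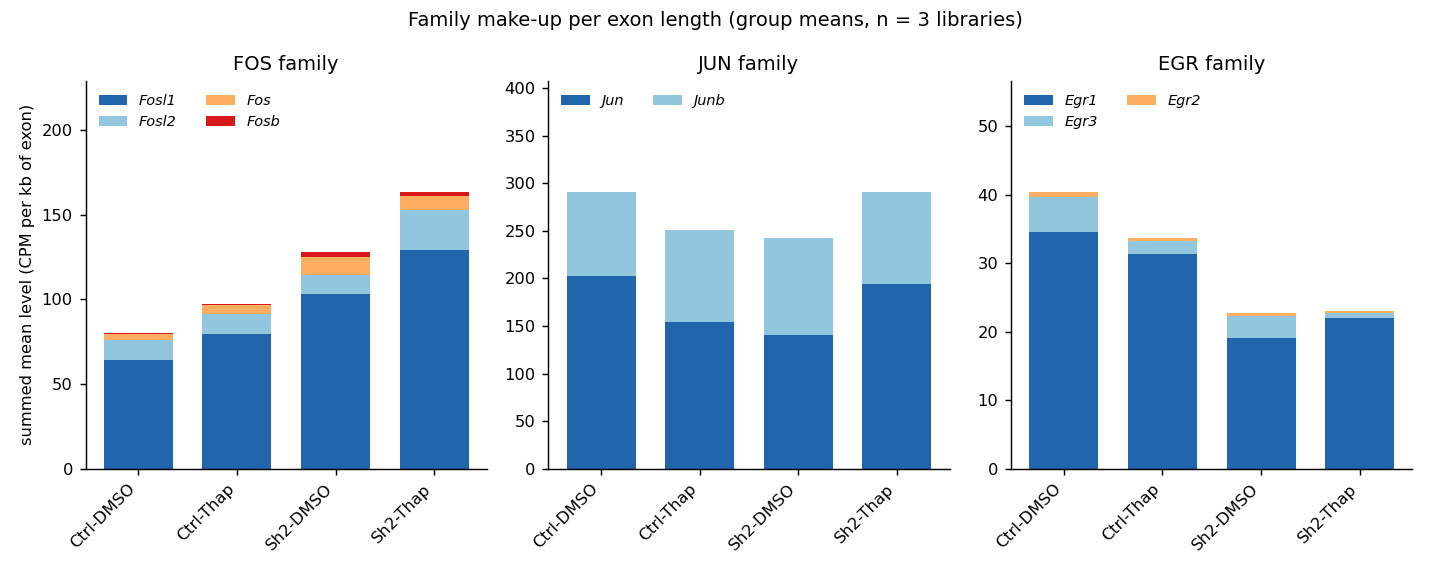
Summed group mean level in CPM per kb of exon (vertical axis, n = 3 libraries a group) for the FOS, JUN and EGR families in the 4 groups, with each bar split by gene. The FOS sum grows from 80.1 in Ctrl-DMSO to 164 in Sh2-Thap, most of it Fosl1, while the EGR sum is 40.4 in Ctrl-DMSO and 23 in Sh2-Thap.

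Other genes of the same pathway were followed through lists written for these comparisons, and their counts are read beside the background shares above. The list of other immediate early genes held 25. With the knockdown in DMSO 20 of them rose in edgeR's test, 5 missed the threshold and 0 fell (0 at an unadjusted p under 0.05, and 0 by DESeq2). Of all genes 25% rose and 26.5% fell there. The median log2 change was 0.53 for the list and 0 over all genes. Ptgs2, which encodes the inducible prostaglandin synthase COX-2, rose from 168 ± 24.1 to 671 ± 26.1 CPM (SD, n = 3), and the nuclear protein gene Csrnp1 rose from 15.3 ± 1.11 to 34.1 ± 0.718. With thapsigargin 15 rose and 9 fell in control cells (all genes: 37.7% and 37%). In knockdown cells 16 rose and 7 fell (all genes: 35.4% and 34.4%). Klf4, which encodes a zinc finger factor, rose from 65.1 ± 1.38 to 360 ± 23.1 CPM in control cells, and the DNA damage and stress gene Gadd45b rose from 31 ± 2.21 to 148 ± 3.49 in knockdown cells. Under thapsigargin 15 were higher and 4 lower with the knockdown (all genes: 28.5% and 28.4%). Ctgf, a matrix growth factor gene, was 120 ± 0.521 CPM in Ctrl-Thap and 501 ± 55.6 in Sh2-Thap. The difference of the thapsigargin effects passed upward for 8 and downward for 9 (all genes: 17.7% each way).

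The closest relatives of the EGR and NR4A members did not all move with them, and they are named here as relatives, outside the rule for named genes. Nr4a2 was 31 ± 1.19, 48.2 ± 4.97, 53.2 ± 1.2 and 43.6 ± 0.986 CPM in Ctrl-DMSO, Ctrl-Thap, Sh2-DMSO and Sh2-Thap. It rose with thapsigargin in control cells (0.63, adjusted p = 4.85e-11), where Nr4a1 fell. Nr4a3 was low, at 0.386 ± 0.112 to 2.48 ± 0.38 CPM as group means, and rose with the knockdown in DMSO (1.05, adjusted p = 0.00764). Egr4 had at most 0.544 CPM as a group mean, so little can be read from it. Nab2, which encodes a corepressor of EGR proteins, was 76.3 ± 2.52, 57 ± 5.14, 46.3 ± 1.55 and 45.2 ± 2.33 CPM and fell with the knockdown in DMSO (-0.72, adjusted p = 2.49e-12).

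Upstream of the members, 18 growth factor ligands and receptors were followed. With the knockdown in DMSO 10 rose and 6 fell (all genes: 25% and 26.5%), with a median of 0.36. Among those with a group mean of 5 CPM or more, the 3 with the largest changes were ligands of the EGF receptor family. Areg rose from 8.2 ± 0.382 to 49.2 ± 4.6 CPM, Ereg from 34.6 ± 0.403 to 107 ± 3.63 and Hbegf from 35.9 ± 2.17 to 91.9 ± 4.53. Thapsigargin also raised Areg and Ereg in control cells, to 52.7 ± 2.43 and 149 ± 6.8 CPM, and in Sh2-Thap they stood at 83 ± 1.53 and 126 ± 4.01. Under thapsigargin Ereg was lower with the knockdown (-0.25, adjusted p = 2.09e-05), and the thapsigargin effect differed between the cell populations for Areg (-1.93, adjusted p = 1.84e-17) and Ereg (-1.87, adjusted p = 2.46e-20). With thapsigargin 4 rose and 11 fell in each cell population. Of all genes 37.7% rose and 37% fell in control cells, and 35.4% and 34.4% in knockdown cells. The receptor gene Pdgfra fell from 49.8 ± 2.81 to 8.82 ± 1.14 CPM in control cells, and Hgf, the ligand of MET, fell from 58.3 ± 9.85 to 12 ± 0.918 in knockdown cells. Under thapsigargin 8 were higher and 4 lower with the knockdown (all genes: 28.5% and 28.4%). The difference of effects passed for 6 upward and 6 downward (all genes: 17.7% each way).

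Among 20 RAS and MAP kinase genes 5 rose and 6 fell with the knockdown in DMSO, near the shares of all genes (25% and 26.5%). Map2k3, a kinase upstream of p38, rose from 159 ± 5.81 to 262 ± 10.9 CPM. Map2k6 fell from 18.2 ± 0.51 to 9.49 ± 1 CPM (-0.94), the largest change of the list there. With thapsigargin 8 rose and 9 fell in control cells (all genes: 37.7% and 37%). In knockdown cells 3 rose and 10 fell (all genes: 35.4% and 34.4%). Mapk3, which encodes ERK1, fell from 106 ± 4.55 to 54.3 ± 0.703 CPM in control cells and from 88.5 ± 5.12 to 54.3 ± 2.95 in knockdown cells. Under thapsigargin 7 were higher and 6 lower with the knockdown (all genes: 28.5% and 28.4%). The difference passed for 6 upward and 3 downward (all genes: 17.7% each way). These are transcript levels and say nothing of kinase activity.

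Among 12 upstream transcription factor genes 3 rose and 3 fell with the knockdown in DMSO, near the shares of all genes (25% and 26.5%). With thapsigargin 3 rose and 3 fell in control cells (all genes: 37.7% and 37%). In knockdown cells thapsigargin raised 4 and lowered 5 (all genes: 35.4% and 34.4%). Under thapsigargin 4 were higher and 5 lower with the knockdown (all genes: 28.5% and 28.4%). The difference passed for 2 upward and 4 downward (all genes: 17.7% each way). Elk3, a serum response factor partner that can repress, fell from 100 ± 2.3 to 40.8 ± 1.74 CPM with thapsigargin in control cells, and under thapsigargin it was 88.5 ± 4.56 CPM in knockdown cells. Srf, the serum response factor gene, fell with thapsigargin in knockdown cells from 165 ± 16.1 to 115 ± 3.31 CPM.

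Of 19 feedback genes of MAP kinase and EGR signalling, chiefly DUSP phosphatases and Sprouty proteins, 15 rose and 2 fell with the knockdown in DMSO, with a median of 0.41. Of all genes 25% rose and 26.5% fell there. Spry4 rose from 6.7 ± 0.623 to 19.6 ± 0.477 CPM and the ERK phosphatase gene Dusp5 from 40.5 ± 0.484 to 114 ± 5.87. Under thapsigargin Spry4 was 21.4 ± 0.516 CPM in control and 16.2 ± 0.309 in knockdown cells, lower with the knockdown (-0.4, adjusted p = 1.04e-05). With thapsigargin 6 rose and 12 fell in control cells (all genes: 37.7% and 37%). In knockdown cells 4 rose and 11 fell (all genes: 35.4% and 34.4%). Under thapsigargin 11 were higher and 7 lower with the knockdown (all genes: 28.5% and 28.4%). Dusp1, a phosphatase gene that is itself immediate early, was 76.9 ± 2.44 CPM in Ctrl-Thap and 175 ± 3.13 in Sh2-Thap. The difference passed for 8 upward and 9 downward (all genes: 17.7% each way).

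Of 11 other dimer partners of AP-1, 9 were tested, Jund not among them. With thapsigargin 9 rose in control cells and 8 in knockdown cells, with medians of 1 and 0.94, and 0 fell in either by edgeR's test (0 also at an unadjusted p under 0.05 and by DESeq2). Of all genes 37.7% rose and 37% fell in control cells, and 35.4% and 34.4% in knockdown cells. Atf3, a stress-induced partner, was 4.71 ± 0.0668, 227 ± 4.4, 10.6 ± 1.02 and 145 ± 2.21 CPM in Ctrl-DMSO, Ctrl-Thap, Sh2-DMSO and Sh2-Thap. Mafk, which encodes a small MAF protein, was 21.7 ± 0.393, 73.8 ± 3.68, 45 ± 4 and 101 ± 3.61 CPM. With the knockdown 3 rose and 2 fell in DMSO (all genes: 25% and 26.5%), and 2 rose and 4 fell under thapsigargin (all genes: 28.5% and 28.4%). The difference passed for 4 downward and for 0 upward (0 at an unadjusted p under 0.05, and 0 by DESeq2), against 17.7% of all genes each way.

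Of 14 genes known as AP-1 targets 8 rose and 4 fell with the knockdown in DMSO (all genes: 25% and 26.5%). Under thapsigargin 8 were higher and 6 lower with the knockdown (all genes: 28.5% and 28.4%). Plau, which encodes the protease urokinase, rose from 193 ± 4.76 to 380 ± 13.6 CPM in DMSO, and its receptor gene Plaur rose from 97.9 ± 4.01 to 212 ± 14.2. The largest change of the list there was a fall, that of Mmp9 from 11.7 ± 0.68 to 1.64 ± 0.412 CPM (-2.82). Spp1 was 4360 ± 189 CPM in Ctrl-Thap and 1150 ± 32.1 in Sh2-Thap (-1.92). Thapsigargin raised 5 and lowered 8 in control cells (all genes: 37.7% and 37%), and raised 4 and lowered 8 in knockdown cells (all genes: 35.4% and 34.4%). Plau fell from 193 ± 4.76 to 35.3 ± 1.92 CPM in control cells, while the collagenase gene Mmp13 rose from 0.52 ± 0.2 to 9.82 ± 0.508. The difference passed for 2 upward and 7 downward (all genes: 17.7% each way). In the target list, as in the members, changes of both signs stood side by side.

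Correlation of log2 CPM over the 12 libraries was used to name up to 3 genes whose pattern was most like that of each member, among 3237 genes whose highest group mean was 5 CPM or more and whose group means spanned at least 1 on the log2 scale. These values describe 4 groups of libraries and are given without a test. Cyp26b1 (r = 0.975), Tead4 (0.974) and Mir17hg (0.964) were nearest to Fos. Nearest to Fosb were Tinagl1 (0.983), Lce1g (0.983) and again Tead4 (0.982). Tead4 was 8.44 ± 0.482, 10 ± 0.677, 19 ± 1.09 and 15.4 ± 0.135 CPM in Ctrl-DMSO, Ctrl-Thap, Sh2-DMSO and Sh2-Thap, the same order of groups as Fos. For Fosl1 they were Wnt4 (0.989), Dyrk3 (0.988) and Vps37b (0.987), and for Fosl2 they were Ahr (0.972), Nox4 (0.972) and Pqlc1 (0.965).

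Jun and Junb had no close match among the genes searched, with highest values of 0.837 for Rgs4 and 0.845 for Ccno. Next came Cyp1b1 (0.824) and Wnt10a (0.784) for Jun, and Itgb7 (0.81) and Adamtsl3 (0.806) for Junb. The highest group mean was only 1.44-fold the lowest for Jun and 1.15-fold for Junb. Genes as flat as these were left out of the search, so the lower values do not show an unusual pattern. For Egr1 the nearest were Acpp (0.98), Gria1 (0.97) and Col5a3 (0.97), and for Egr2 Mxi1 (0.975), St5 (0.974) and Lysmd4 (0.97). Egr3 had Pam (0.995), Narf (0.995) and Cd276 (0.993), and among those nearest to Nr4a1 were Tnfrsf22 (0.992) and Hspb6 (0.989). Among the members themselves, Fos and Fosb had r = 0.96 over the 12 libraries, and Egr1 had r = -0.95 with each of them.

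The genes were also compared by structure, which the choice did not use. In GENCODE vM21 on GRCm38 their median span was 6063 bp, against 17338 bp for the 21967 protein-coding genes in the files, with 4 exon blocks against 7, while the median exon length was 3453.5 bp against 3493 bp. These are medians of the set: Fosl2 spans 22042 bp, and Nr4a1 spans 20527 bp with 10 exon blocks, above the medians of protein-coding genes. Jun is a single exon of 3189 bp (ENSMUSG00000052684, chromosome 4, 95049034 to 95052222, minus strand). Fos (ENSMUSG00000021250) lies on chromosome 12 from 85473890 to 85477273, Fosb (ENSMUSG00000003545) on chromosome 7 from 19302696 to 19310051, and Fosl2 (ENSMUSG00000029135) on chromosome 5 from 32135801 to 32157842. Fosl1 (ENSMUSG00000024912) lies on chromosome 19 from 5447547 to 5455946, Junb (ENSMUSG00000052837) on chromosome 8 from 84974484 to 84978718, and Egr2 (ENSMUSG00000037868) on chromosome 10 from 67535475 to 67542188. Egr1 (ENSMUSG00000038418) lies on chromosome 18. Egr3 (ENSMUSG00000033730) lies on chromosome 14 from 70077203 to 70082614 and Nr4a1 (ENSMUSG00000023034) on chromosome 15 from 101254269 to 101274795.

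The pentamer ATTTA, the core of AT-rich elements that mark transcripts for decay, was counted in the 3′ untranslated regions on the sense strand. Its median density was 2.58 per kb over the 10 members and 1.35 per kb over 13013 genes with such a region of at least 100 bp. Of the 10 members 9 lay above the median of all genes. Nr4a1 had 5.52 per kb, Fos 4.91, Junb 4.12 and Jun 3.24, whereas Fosb had 0.434. The longer form of the element occurred in 4 of the members, or 40%, and in 18.1% of the 13013 genes. These counts describe annotated sequence, and transcript decay was not measured in these libraries.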

How the data were processed

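Poly(A) RNA of 12 libraries was sequenced, and the authors deposited raw counts per gene, 1 file per library. Per the submitters' processing notes the tools were Trim Galore, STAR 2.5.3a, bedtools 2.31.0 and DESeq2, with the builds mm10 and hg38. Counter, annotation release and use of strand are not given in the sources used here, which leaves overlapping and antisense genes uncertain. Entries that name no gene (5 per file, 13.32% to 14.61% of reads, of which ambiguous reads 6.47% to 6.88%) were left out. Of 53801 identifiers 53706 matched GENCODE vM21.

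Tests used edgeR 4.0.16: TMM scaling, its default filter (15828 genes tested, 37973 not), robust quasi-likelihood fits over 4 groups, and Benjamini-Hochberg adjustment over all genes tested, called under 0.05. The approximate SE was derived from the log2 change and its F statistic. Intervals are 95%. Correlations used log2 CPM with a prior count of 2. Depth of 29.42 to 47.72 M gene reads gave the members mean counts of 33.3 to 22400 reads per group, with means under 100 for Egr2 in every group, Fosb in Ctrl-DMSO and Egr3 in Sh2-Thap, where counting error is largest.

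All members are named. From each list up to 3 genes per comparison with the largest called change were eligible, if the libraries did not overlap and a group mean reached 5 CPM, and a few relatives were added. A few genes that these rules name are not reported here. The members and lists were chosen with earlier results of these data known. On data simulated for 15828 genes, 100 genes were changed by a log2 of 1 and 100 by 0.5. In the DMSO knockdown contrast 98% and 90% of these were recovered, and the test of the difference recovered 96% and 81%, each with 11 false calls. The changed genes left out the scarcest ones, and the simulated spread depended on level alone. In the data 51.5% of genes were called in the DMSO knockdown contrast, so the simulation does not test scaling where so many genes change. The alternatives were DESeq2 1.42.0, 2 other scalings, 2 other filters, the compared groups alone, a replicate block and leaving out each library. Promoters came from RefSeq (GRCm38.p6). Figures were drawn with matplotlib 3.10.9 in Python 3.11.15, and models were fitted in R 4.3.3.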

Additional observations from a re-analysis of the deposited data

Results flagged for a closer look

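For 7 genes the effect of thapsigargin differed between knockdown and control cells by a test of the difference itself (edgeR's quasi-likelihood test, knockdown minus control, log2 scale, adjusted over all genes tested). Fosl2 (1.08), Jun (0.86) and Egr1 (0.34) had a more positive effect in knockdown cells. Fos (-0.82), Fosb (-0.78), Egr3 (-0.83) and Junb (-0.21) had a more negative one. Such a difference was found for 35.4% of all genes tested. For Fos, Fosb and Jun the effect passed the threshold in opposite directions in the 2 cell populations, and for Fosl2 and Egr1 it passed in knockdown cells and not in control cells. The thapsigargin calls of Fosb and Egr1 within a cell population changed when single libraries were left out.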

How the results depend on the processing

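No called change of a member reversed its direction. Of 940 repeats of the members' tests, 904 stayed on their side of the threshold, 29 lost a call and 7 gained one. Changes that were not called could switch sign. That of Fosl2 with thapsigargin in control cells ran from -0.04 to 0.03. The calls lost concerned Fosb and Junb with thapsigargin in control cells, Fosb and Egr1 with thapsigargin in knockdown cells, Egr2 with the knockdown under thapsigargin, and the difference for Junb, and those gained concerned Egr1 with thapsigargin in control cells. All 376 repeats of the counts of members and of all genes stayed within 1.5 times. The replicate numbers did not pair the libraries: correlations of deviations ran from -0.03 to 0.077 for equal numbers and from -0.085 to 0.08 for unequal ones, and 6 of 12 libraries correlated best with their own number. With the replicate block Fosb had an adjusted p of 0.0546 in control and 0.0798 in knockdown cells, and Egr1 one of 0.0109 in control cells. Repeats of the list counts were added after seeing the data: 1300 stayed within 1.5 times and 16 did not, as follows. The 2 feedback genes that fell with the knockdown in DMSO became 1 without Ctrl-DMSO replicate 2 or 3 or Sh2-DMSO replicate 1 or 2, with genes of any count or with the compared groups alone. The 3 upstream factors that fell there became 1 without Ctrl-DMSO replicate 1 or Sh2-DMSO replicate 2. The 5 AP-1 targets that rose with thapsigargin in control cells became 3 by DESeq2, with genes of any count, or without Ctrl-DMSO replicate 1 or 2 or Ctrl-Thap replicate 1. The 2 partners higher under thapsigargin became 1 without Ctrl-Thap replicate 1 or 2, and the 8 other immediate early genes with an upward difference became 5 without Sh2-DMSO replicate 1. On plain library totals 8 of 40 group levels moved by more than 1 SD. They were Fos, Fosl1, Fosl2, Junb, Egr1, Egr3 and Nr4a1 in Sh2-Thap, and Jun in Sh2-DMSO. The 2 scales differ only by the TMM factor, which was 1.0486 to 1.0735 in Sh2-Thap and 0.9666 to 0.9971 in the other groups. Why the factors differed was not tested.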
